A study of Homo sapiens with 18 samples.

Results

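The nuclear genome encodes the whole of complex II of the mitochondrial respiratory chain and most subunits of complexes III, IV and V. The genes described here were chosen by symbol: the 4 *SDH* genes of complex II, the *UQCR* genes and *CYC1* of complex III, 11 *COX* genes of complex IV, and every gene whose symbol starts with *ATP5* for complex V, without pseudogenes and antisense genes and with a mean of at least 1 TPM (transcripts per 1e6, a level divided by gene length) over all libraries. Of the 45372 symbols in the deposited table, 43 met this rule, 4 for complex II, 9 for complex III, 11 for complex IV and 19 for complex V. For comparison, 14117 symbols reached a mean of 1 TPM. *ATP5MGL* matched by symbol but had a mean of 0.782 TPM and was not included. *ATP5MF-PTCD1*, a readthrough locus that overlaps *ATP5MF*, was included because its symbol fits the rule, and reads from the shared part cannot be assigned to either with certainty.

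RNA sequencing covered 18 libraries of 2 acute myeloid leukemia (AML) cell lines, MV4-11 and THP1, both of which carry a rearranged *KMT2A* gene. Each line gave 3 libraries from the vehicle DMSO and 3 from each of 2 times, 8 h and 24 h, of the compound IACS-010759 (IACS) at 50 nM. IACS inhibits complex I, and the genes described here encode the nuclear subunits of the other 4 enzymes of oxidative phosphorylation. The labels do not give the time of the DMSO libraries, so both IACS times were compared with the same 3 DMSO libraries per line and share them. Each line is a single culture model without other cell types, and the study's methods call the libraries within a group independent replicates. In bulk RNA, fewer cells and less of a transcript per cell cannot be told apart.

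Complex II, succinate dehydrogenase, feeds electrons from the tricarboxylic acid cycle into the ubiquinone pool, and complex III passes them from ubiquinol to cytochrome c. Complex IV hands them from cytochrome c to oxygen, and complex V, the ATP synthase, uses the proton gradient built by complexes I, III and IV to make ATP. Cytochrome b of complex III, the catalytic core of complex IV and part of the proton channel of complex V come from mitochondrial DNA, so each of these 3 enzymes is assembled from products of both genomes. Nuclear respiratory factor 1 (NRF1), the ETS-family factor GABP and YY1 are known regulators of many of the nuclear genes.

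Estimated depth was 22.1 to 29.2 (median 24.5) in units of 1e6 reads on annotated genes. The fewest estimated reads of any member were those of *SDHC*, 151 to 257 per library, and *ATP5F1B* had 9496 to 22922. The myeloid genes *SPI1* (means of 100 to 121 TPM over the groups) and *CEBPA* (222 to 246 TPM) were present in both lines, while *CD14* was at 0.26 to 0.48 TPM, *ITGAM* at 0.84 to 1.39 TPM in MV4-11 and *MEIS1*, a gene of *KMT2A*-rearranged leukemia, at 0.01 TPM in THP1. *MPO* had means of 1.37 to 6.41 TPM. *HBB*, *MS4A1*, *CD3E*, *EPCAM*, *COL1A2* and *DCN*, which mark erythroid, B, T, epithelial and fibroblast cells, had means of 0 to 0.06 TPM.

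Promoter windows from RefSeq (GRCh38.p14), from 250 bases before to 50 bases after the start site, were found for 34 of the 43 members. *SDHC*, *UQCRB*, *CYC1*, *COX6C*, *ATP5MC3*, *ATP5MF-PTCD1*, *ATP5MF*, *ATP5F1B* and *ATP5F1D* were not matched. Sequences were searched on both strands. The NRF1 motif, 10 bases of which 9 are fixed, was in 10 of 34 members, against 5.78% of the 35116 promoters in the table, and the ETS motif CCGGAAG was in 16 of 34, against 10.3%. The YY1 motif AAGATGGC was in 5 of 34, against 2.89%. Among promoters of protein-coding genes, as all members are, the shares were 7.39% for NRF1, 12.8% for ETS and 3.53% for YY1. A member counted if any of its windows matched (40 windows for the 34 members), whereas the shares count single windows. *ATP5ME*, *SDHD* and *UQCR11* held both the NRF1 and the ETS motif. A match is a run of letters and was not tested for binding.

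The stretches below belong to the members that the results turn on. Those of *SDHA*, *UQCRFS1*, *UQCR11*, *COX6B1* and *COX7A2* belong to genes that differed between the lines. Those of *ATP5MC1*, *ATP5PF*, *ATP5PO* and *COX5A* belong to genes among the lowest log2 fold changes after 24 h of IACS, for *ATP5PO* in THP1 only. Each is written 5′ to 3′ on the strand of the gene, 60 bases long, or 100 bases where none of the 3 motifs was found in the window. Capitals mark the NRF1 motif in *SDHA*, *UQCRFS1*, *UQCR11* and *ATP5PO*, and the ETS motif in *COX6B1* and *ATP5PF*. In *ATP5MC1* they mark the cyclic AMP response element TGACGTCA, which was searched for after the sequence of *ATP5MC1* had been read. It was in 3 of 34 members, against 1.85% of all promoters and 2.26% of those of protein-coding genes. They lie at chr5:218129-218188 (plus strand) for *SDHA*, chr19:29213152-29213211 (minus strand) for *UQCRFS1*, chr19:1605463-1605522 (minus strand) for *UQCR11*, chr19:35648263-35648322 (plus strand) for *COX6B1*, chr6:75243802-75243901 (minus strand) for *COX7A2*, chr17:48892687-48892786 (plus strand) for *ATP5MC1*, chr21:25735050-25735109 (minus strand) for *ATP5PF*, chr21:33915805-33915864 (minus strand) for *ATP5PO* and chr15:74938074-74938173 (minus strand) for *COX5A*.
SDHA: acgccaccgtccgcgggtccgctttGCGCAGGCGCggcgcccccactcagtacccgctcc
UQCRFS1: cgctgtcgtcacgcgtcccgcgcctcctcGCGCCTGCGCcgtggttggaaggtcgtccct
UQCR11: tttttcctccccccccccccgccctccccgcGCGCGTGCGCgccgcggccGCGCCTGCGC
COX6B1: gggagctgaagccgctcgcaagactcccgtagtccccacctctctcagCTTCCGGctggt
COX7A2: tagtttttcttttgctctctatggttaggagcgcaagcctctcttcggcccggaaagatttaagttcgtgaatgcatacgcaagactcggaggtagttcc
ATP5MC1: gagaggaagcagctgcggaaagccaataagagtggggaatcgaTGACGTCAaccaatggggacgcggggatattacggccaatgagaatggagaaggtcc
ATP5PF: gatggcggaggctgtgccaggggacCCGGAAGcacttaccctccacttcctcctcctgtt
ATP5PO: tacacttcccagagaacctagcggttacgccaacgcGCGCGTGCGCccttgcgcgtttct
COX5A: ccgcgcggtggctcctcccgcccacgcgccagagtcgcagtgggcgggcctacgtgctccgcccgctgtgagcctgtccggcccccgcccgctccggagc

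The window of *SDHA* held 4 NRF1 matches and that of *UQCR11* held 2, both in the stretch shown, while *COX5A* and *COX7A2* held none of the motifs searched.

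In MV4-11 the libraries of replicate number 3 in both IACS groups stood apart from the other 2 of their group. The summed level of the 43 members was 5915, 5968 and 6171 TPM in the DMSO libraries, 5515, 5333 and 7687 TPM after 8 h of IACS, and 4927, 4739 and 7003 TPM after 24 h. All 43 members were highest in replicate 3 of the 8 h group, and 41 of 43 were highest in replicate 3 of the 24 h group. The same 2 libraries had 39.6% and 42.9% of their TPM in 5 short noncoding RNAs (*RPPH1*, *RMRP*, *RN7SK* and the pair *RN7SL1* and *RN7SL2*), against 47.8% to 51.9% in the other IACS libraries of MV4-11. Results for MV4-11 are therefore given with and without these 2 libraries, a choice made after seeing the data. The members' own values singled out these libraries, so lower member values without them follow in part from that choice. In replicate 3 at 24 h the median member was 0.37 in log2 above the other 2 libraries, while the median of all genes was -0.02. At 8 h these medians were 0.47 and 0.29.

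In THP1 the summed level was 6076, 5441 and 4827 TPM with DMSO, 5324, 6024 and 4358 TPM at 8 h, and 4822, 4673 and 3996 TPM at 24 h. The 3 libraries at 24 h were all below the 3 DMSO libraries, although the highest of the first nearly met the lowest of the second, and the 8 h values overlapped DMSO. By complex, the sums at 24 h and with DMSO overlapped for complexes II, III and IV. They were separate for complex V, with 1420 to 1781 TPM at 24 h and 1862 to 2386 TPM with DMSO. Replicate 3 was the lowest of each THP1 group and held the most TPM in the 5 noncoding RNAs, 55.8% to 60.1% against 46.3% to 54.5% in the others. As a share of the TPM left after these RNAs and the mitochondrially encoded genes, the members made up 1.175%, 1.117% and 1.144% with DMSO, 1.204%, 1.196% and 1.130% at 8 h, and 1.087%, 1.011% and 1.029% at 24 h. The 24 h shares were thus also all below those of DMSO. In MV4-11 this share was 1.17%, 1.18% and 1.26% with DMSO, and at 24 h it was 0.980% and 0.960% in replicates 1 and 2 but 1.27% in replicate 3.

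**Figure D1:**
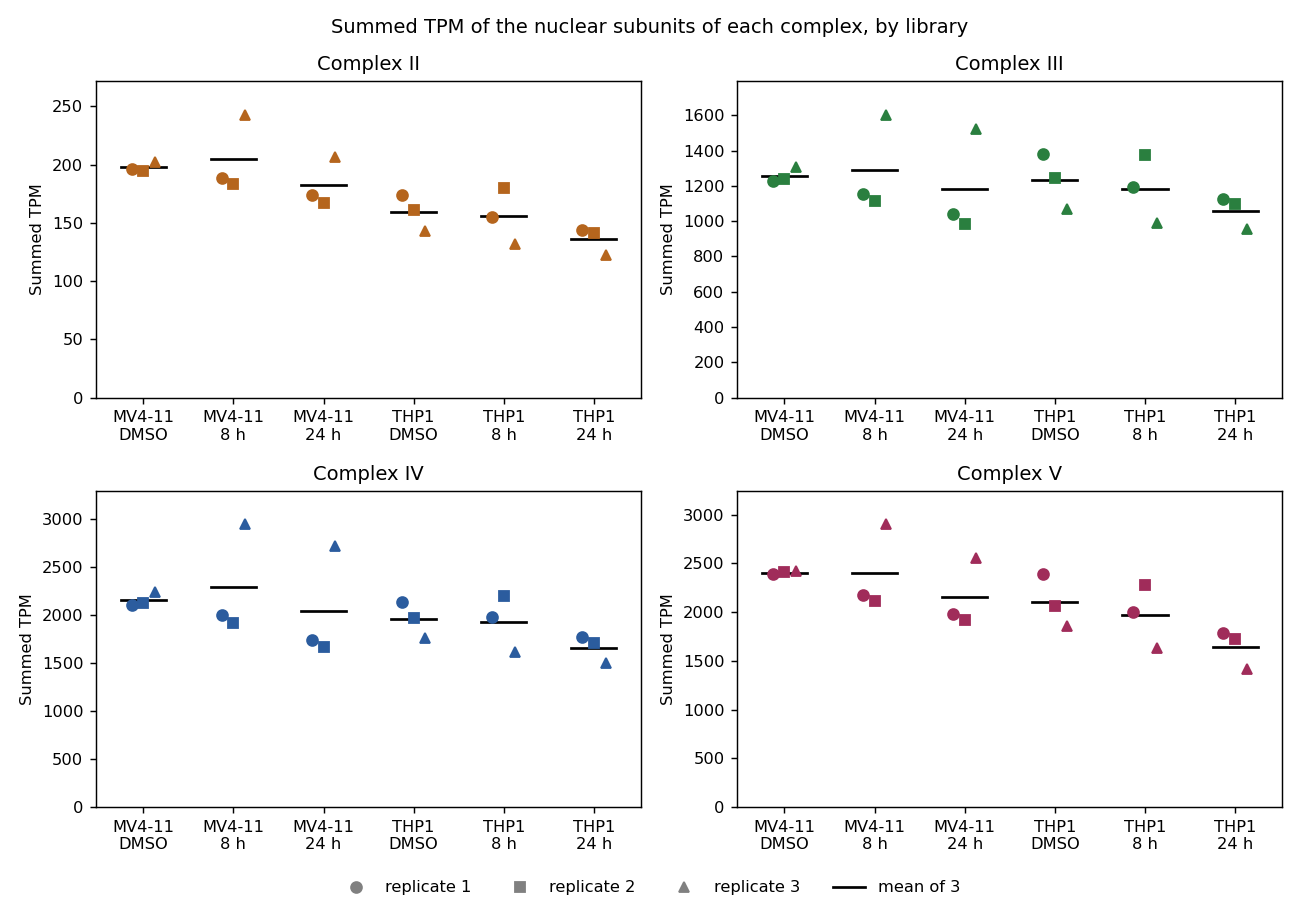
Summed TPM (vertical axes, from 0) of the nuclear subunits of complexes II, III, IV and V in each of the 18 libraries, by cell line and treatment. Symbols mark the replicate number and lines the mean of 3 libraries; replicate 3 of both IACS groups of MV4-11 lies above all other MV4-11 libraries for every complex, and for complex V the 3 libraries of THP1 at 24 h lie below all 3 of its DMSO libraries.

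Levels within one enzyme differed widely although its subunits are built in at fixed ratios. Over the 18 libraries, complex II ran from *SDHC* (10.3 TPM), one of the membrane anchors of cytochrome b, through *SDHA* (39.6 TPM), the flavoprotein that oxidises succinate, and *SDHB* (55.3 TPM), the iron-sulfur subunit, to the other anchor *SDHD* (67.4 TPM). In complex III the hinge protein gene *UQCRH* (370 TPM), the cytochrome c1 gene *CYC1* (223 TPM) and *UQCR10* (146 TPM) were highest, and *UQCRB* (53.9 TPM), *UQCRQ* (63.4 TPM) and *UQCR11* (64.2 TPM) lowest. In complex IV *COX8A* (637 TPM), *COX6B1* (264 TPM) and *COX6A1* (168 TPM) were highest. *COX7A2L* (24.3 TPM), which encodes a protein that joins complexes III and IV into supercomplexes, was lowest, before *COX7B* (71.6 TPM) and *COX4I1* (113 TPM).

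Complex V ranged from *ATP5MF-PTCD1* (12.2 TPM), *ATP5MC3* (40.1 TPM) and *ATP5MPL* (41.0 TPM) to *ATP5ME* (150 TPM), *ATP5MD* (165 TPM) and *ATP5F1B* (636 TPM). *ATP5MPL* and *ATP5MD* are older symbols of *ATP5MJ* and *ATP5MK*. The gene of the catalytic beta subunit, *ATP5F1B*, had a higher level per length than that of its partner alpha subunit, *ATP5F1A* (106 TPM), with which it forms the catalytic head at equal numbers. That gap depends on the exon length used: 31 of 43 members gave whole reads, within 0.05, in all 18 libraries with the union of their exons in GENCODE release 44, which is 10908 bases for *ATP5F1A* and 2238 bases for *ATP5F1B*, and their estimated reads were 8357 to 18633 and 9496 to 22922. *ATP5IF1*, whose product inhibits ATP hydrolysis by the enzyme, had 52.9 TPM.

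Levels of the tissue-specific isoforms were near 0. *COX7A1*, *COX7B2*, *COX4I2*, *COX6A2*, *COX6B2* and *COX8C* had group means of 0 to 0.25 TPM, against 113 TPM for *COX4I1* and 141 TPM for *COX7A2*. *NDUFA4*, now assigned to complex IV, had group means of 41.74 to 54.98 TPM. *UQCRHL*, a retrocopy nearly identical to *UQCRH*, had 1.47 to 5.84 TPM, and reads of this pair may be exchanged, as may those of *SDHA* and its pseudogenes.

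The comparison of IACS with DMSO asks whether inhibition of complex I changed the transcripts of the other complexes. A call needed a Benjamini-Hochberg adjusted p under 0.05 by limma and a fold change above 1.5 on log2(TPM + 1), the scale of all fold changes here. After 8 h, 0 of 43 members were called in MV4-11 (0.0148% of all genes tested were called) and 0 of 43 in THP1 (0.0144%). At an unadjusted p under 0.05 by limma the counts were also 0 in each direction, where 0.997% of all genes were lower and 3.39% higher in MV4-11 and 1.86% were lower and 0.251% higher in THP1. The median log2 fold change of the members was 0.02 in MV4-11 and -0.08 in THP1, against 0.06 and -0.12 for all genes.

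At 8 h the widest values in MV4-11 were 0.22 for *COX7A2* and -0.20 for *ATP5F1D* (limma adjusted p = 0.982 for both). *COX7A2* encodes a small membrane subunit of complex IV and *ATP5F1D* the delta subunit of complex V. In THP1 the widest values were 0.11 for *ATP5MF-PTCD1* and -0.27 for *ATP5PF* (limma adjusted p = 0.941 for both), the coupling factor 6 subunit of the peripheral stalk. No member had its 3 libraries at 8 h all outside those of DMSO in either line. The share of all genes tested with all 3 libraries below DMSO was 1.65% in MV4-11 and 4.06% in THP1, and the share above DMSO was 7.13% and 0.704%. Without replicate 3 of both IACS groups, 30 of 43 members had both 8 h libraries of MV4-11 below all DMSO libraries (23.7% of all genes), and 1, *ATP5MC1* (log2 fold change -0.43, limma adjusted p = 0.0278), passed the adjusted p at any fold (0.956%).

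After 24 h, 0 of 43 members were called in MV4-11 (0.0886%) and 0 of 43 in THP1 (0.0431%) by limma. At an unadjusted p under 0.05 by limma, 2 members were lower in MV4-11 (2.36% of all genes) and 13 were lower in THP1 (7.12%), and 0 were higher in either (9.66% and 1.49%). The medians were -0.14 in MV4-11 and -0.27 in THP1, or -0.22 and -0.15 relative to the medians of all genes, 0.08 and -0.12. All genes averaging 20 TPM or more, the range of most members, had medians of -0.06 and -0.06 relative to all genes. Below the median of all genes lay 41 of 43 members in MV4-11 and 38 of 43 in THP1, where 50% of all genes lie by construction.

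**Figure D2:**
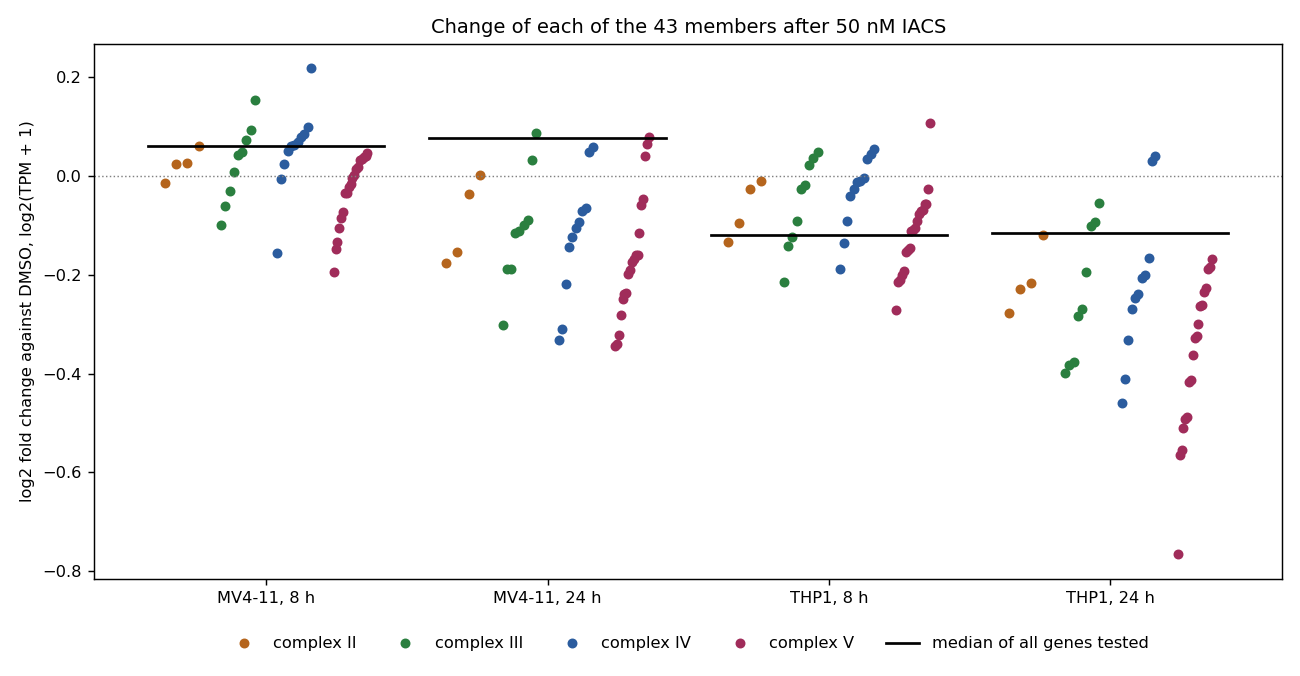
Log2 fold change against DMSO (vertical axis) of each of the 43 members at 8 h and 24 h of 50 nM IACS in MV4-11 and THP1, ordered within each complex. Points are single genes coloured by complex and black lines the median of all genes tested; at 24 h, 41 of 43 (MV4-11) and 38 of 43 (THP1) points lie below the line, with *ATP5MC1* in THP1 lowest at -0.77.

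The 24 h libraries of THP1 were all below its DMSO libraries for 21 of 43 members (10.2% of all genes). These were 1 of complex II (*SDHD*), 4 of complex III (*UQCRC1*, *CYC1*, *UQCR10* and *UQCR11*), 6 of complex IV and 10 of complex V. In MV4-11 this held for 5 of 43 members (5.26%), *UQCRH*, *COX5A*, *ATP5MPL*, *ATP5PD* and *ATP5PF*. With the 2 IACS libraries of replicate 3 left out, 35 of 43 members had both 24 h libraries of MV4-11 below DMSO (16.9%), 31 of 43 passed an adjusted p under 0.05 by limma at any fold in the lower direction (6.82%) and 0 in the higher (10.9%). The median relative to all genes was then -0.39, with 42 of 43 members below the median. As the members' own high values marked the libraries left out, these counts are no separate support for a fall. With the fold threshold 1 member, *ATP5MC1*, was called (0.6%). The 12 members that did not pass at any fold included *SDHA*, *SDHB*, *SDHC*, *UQCRB*, *COX7A2L*, *ATP5IF1* and *ATP5MC2*.

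By role, the c-ring of complex V held the lowest log2 fold change of the members in THP1 at 24 h. The ring turns as protons pass, and its subunit c is encoded by *ATP5MC1*, *ATP5MC2* and *ATP5MC3*, whose precursors differ in the import sequence but give the same mature protein. *ATP5MC1* (chr17:48892765-48895871 of GRCh38, plus strand) had 64.9, 54.0 and 56.9 TPM with DMSO in THP1, 54.0, 66.3 and 43.9 TPM at 8 h, and 38.6, 37.3 and 27.1 TPM at 24 h. The 24 h values were the 3 lowest. The log2 fold change at 24 h was -0.77 (SE 0.18, limma adjusted p = 0.312). Deviations of the same-numbered THP1 libraries correlated weakly in these groups (0.146, 0.149 and 0.324), and what a number stands for is not known. With that number as a block *ATP5MC1* was called (limma adjusted p = 0.00440), as 1 of 43 members (1.73% of all genes in the lower direction). It was also the 1 member called with median-of-ratios scaling (log2 fold change -0.63, limma adjusted p = 0.0191, 0.352% of all genes lower) and with the 5 noncoding RNAs left out (-0.63, adjusted p = 0.0300, 0.229%).

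In MV4-11 *ATP5MC1* had 52.8, 51.2 and 53.1 TPM with DMSO, 38.6, 38.8 and 76.3 TPM at 8 h, and 31.6, 34.3 and 64.3 TPM at 24 h. Replicates 1 and 2 were below DMSO at both times and replicate 3 above it. The log2 fold change at 24 h was -0.34 (SE 0.28, limma adjusted p = 0.671). Without replicate 3 of both IACS groups it was -0.65 (SE 0.06, adjusted p by limma 0.00531).

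*ATP5MC3* had 56.7, 51.8 and 47.6 TPM with DMSO in THP1, 48.2, 54.2 and 39.0 TPM at 8 h, and 37.6, 38.3 and 29.1 TPM at 24 h, again without overlap between 24 h and DMSO (a difference of -0.57 in log2, SE 0.16, limma adjusted p = 0.433, and 0.00518 with the replicate block). *ATP5MC2*, the most abundant of the 3, gave other values. It had 93.3, 90.5 and 79.8 TPM with DMSO and 80.3, 87.8 and 64.8 TPM at 24 h in THP1, which overlapped. In MV4-11 it had 114, 114 and 110 TPM with DMSO and 112, 112 and 136 TPM at 24 h (log2 fold change 0.08, limma adjusted p = 0.852). Differences among the 3 genes were not tested against each other.

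**Figure D3:**
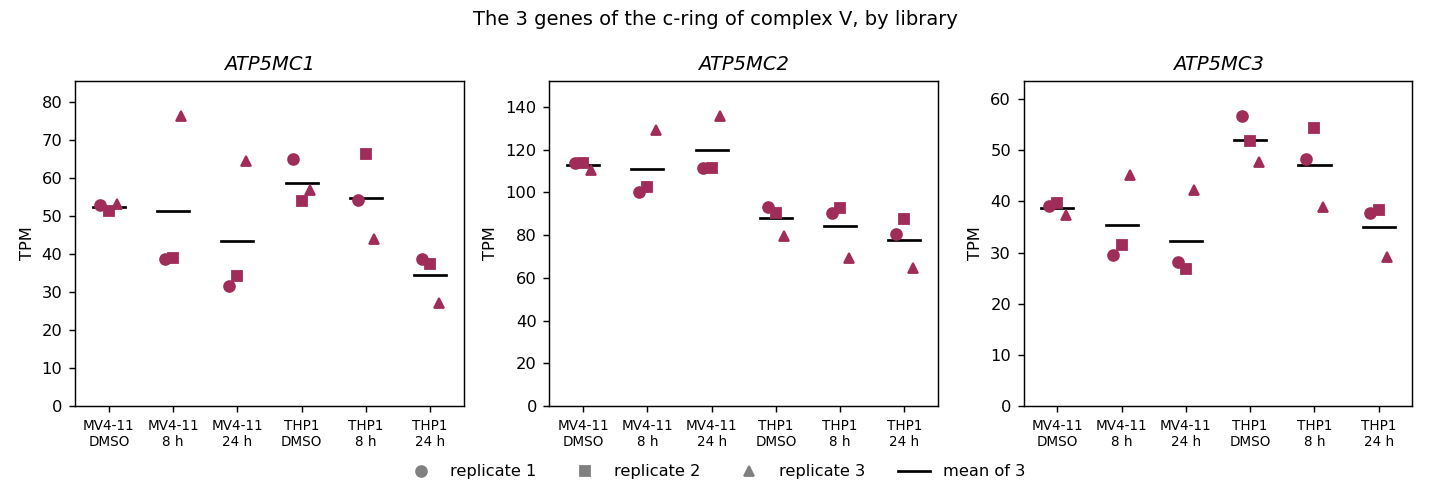
TPM (vertical axes, from 0) of *ATP5MC1*, *ATP5MC2* and *ATP5MC3*, the 3 genes of the c-ring, in each library. Symbols mark the replicate number and lines the mean of 3; *ATP5MC1* and *ATP5MC3* in THP1 at 24 h lie below all DMSO libraries, while *ATP5MC2* overlaps them.

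The peripheral stalk, which holds the catalytic head still, is made from *ATP5PB*, *ATP5PD*, *ATP5PF* and *ATP5PO*. *ATP5PF* was lower in both lines at 24 h without overlap. Its TPM were 72.3, 70.3 and 69.7 with DMSO and 50.8, 53.3 and 63.0 at 24 h in MV4-11 (a difference of -0.35 in log2, SE 0.14, limma adjusted p = 0.348), and 86.8, 69.6 and 68.3 with DMSO and 50.2, 57.5 and 44.2 at 24 h in THP1 (-0.56, SE 0.17, adjusted p by limma 0.454, or 0.0114 with the replicate block). It gave the lowest log2 fold change of the 43 members in MV4-11. *ATP5PO*, the subunit that ties the stalk to the head, had 95.4, 76.2 and 70.3 TPM with DMSO and 62.0, 60.8 and 46.1 TPM at 24 h in THP1 (log2 fold change -0.51, limma adjusted p = 0.498).

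The gene of the delta subunit, *ATP5F1D*, had 41.4, 49.2 and 35.5 TPM with DMSO and 30.1, 37.9 and 22.04 TPM at 24 h in THP1, with overlap (log2 fold change -0.49, limma adjusted p = 0.552, or 0.0106 with the replicate block). The gene of the beta subunit, *ATP5F1B*, had 633, 560 and 491 TPM with DMSO and 498, 460 and 356 TPM at 24 h in THP1, with overlap, and 777, 804 and 785 against 647, 637 and 787 TPM in MV4-11, where replicate 3 lay within the DMSO range. Of the supernumerary membrane subunits, *ATP5MPL* had 50.3, 39.1 and 36.8 TPM with DMSO and 30.9, 30.6 and 26.9 TPM at 24 h in THP1 (log2 fold change -0.49, limma adjusted p = 0.495). *ATP5MF* in MV4-11 had a log2 fold change of -0.32 (limma adjusted p = 0.511). *ATP5IF1*, the inhibitor of the enzyme, had 51.2, 56.6 and 57.6 TPM with DMSO and 57.4, 52.2 and 63.9 TPM at 24 h in MV4-11, and 59.6, 54.1 and 49.3 against 46.8, 53.0 and 38.9 TPM in THP1, so that the groups overlapped in both lines. All 19 members of complex V lay below the median of all genes at 24 h in THP1 and 18 of 19 in MV4-11.

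In complex IV *COX5A*, a matrix subunit, was among the lowest in both lines. It had 187, 208 and 203 TPM with DMSO and 154, 148 and 172 TPM at 24 h in MV4-11 (a difference of -0.33 in log2, SE 0.12, limma adjusted p = 0.305), and 197, 179 and 145 against 135, 133 and 108 TPM in THP1 (-0.46, limma adjusted p = 0.517, and 0.00766 with the replicate block). The groups did not overlap in either line. *COX4I1*, whose product is among the first nuclear subunits to join the enzyme, had 114, 108 and 101 TPM with DMSO and 88.2, 95.5 and 73.1 TPM at 24 h in THP1, without overlap. *COX7A2L* gave the highest value in THP1, 0.04 (limma adjusted p = 0.941), with 22.6, 18.9 and 19.3 TPM against 21.4, 21.5 and 19.5 TPM, and *COX6C* 0.03.

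Relative to all genes, the medians at 24 h in MV4-11 and THP1 were -0.17 and -0.11 for complex II, -0.19 and -0.15 for complex III, -0.18 and -0.12 for complex IV and -0.25 and -0.21 for complex V. The complexes were not tested against each other. In complex III *CYC1* gave the lowest value in THP1, with 238, 230 and 179 TPM with DMSO and 179, 175 and 136 TPM at 24 h, where the highest at 24 h lay just below the lowest with DMSO (log2 fold change -0.40, limma adjusted p = 0.578, or 0.0175 with the replicate block). *UQCRC1*, a core subunit, had 132, 133 and 109 TPM against 104, 107 and 78.4 TPM there, also without overlap (-0.38, limma adjusted p = 0.578, or 0.0155 with the block). *UQCRFS1*, the Rieske iron-sulfur subunit, had 56.9, 47.7 and 37.1 TPM with DMSO and 42.4, 40.8 and 32.9 TPM at 24 h in THP1, with overlap. *UQCRH* had 538, 463 and 376 TPM against 459, 441 and 413 TPM there, a log2 fold change of -0.05. In MV4-11 the highest value at 24 h was 0.09 for *UQCRC2*, the other core subunit (limma adjusted p = 0.854). The 4 genes of complex II lay between -0.28 and -0.12 in THP1 and between -0.18 and 0.0016 in MV4-11 at 24 h, and *SDHC* overlapped between the groups in both lines.

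In total, the block with the replicate number at 24 h in THP1 let 16 of 43 members pass an adjusted p under 0.05 by limma at any fold in the lower direction (11.1% of all genes) and 0 in the higher (1.11%). The 16 were *UQCRC1*, *CYC1*, *UQCR10*, *COX5A*, *COX4I1*, *COX7B* and 10 genes of complex V. With the block and median-of-ratios scaling together, 11 passed lower (8.21%) and 1, *COX7A2L*, higher (6.89%). In MV4-11 at 24 h against DMSO, with all libraries, the block let 0 of 43 pass lower (0.126%) and 0 higher (0.62%).

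The 2 lines share no library, so their 24 h values can be set beside each other. The log2 fold changes of 34 of 43 members were below 0 in both lines, as were 30.5% of all genes tested in both (34% were below 0 in MV4-11 and 72.8% in THP1), and over the 43 members Pearson's r was 0.57 and Spearman's rho 0.50, a description across genes that share libraries within each line. A difference between the lines in the response to IACS was tested as an interaction, and 0 of 43 members were called by limma at 8 h or at 24 h (0.00708% of all genes at each time), with 0 at an unadjusted p under 0.05 in either direction (of all genes at 8 h, 0.12% had a higher and 3.04% a lower log2 fold change in THP1 than in MV4-11, and these shares were 0.439% and 6.67% at 24 h). The widest at 24 h was -0.45 for *ATP5PO* (95% interval -0.98 to 0.08, limma adjusted p = 0.699), an interval that includes 0.

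Between 8 h and 24 h of IACS, 0 of 43 members were called by limma in MV4-11 (0% of all genes) and 0 in THP1 (0.00718%). At an unadjusted p under 0.05 by limma, 0 were lower in MV4-11 (0.775%) and 8 in THP1 (2.3%). The median of the members relative to all genes was -0.18 in MV4-11 and -0.21 in THP1. *ATP5MC1* had the widest value in THP1, -0.65 (SE 0.18, limma adjusted p = 0.519), and was called with the replicate block (limma adjusted p = 0.0201), as 1 of 43 members (0.373% of all genes in the lower direction). At any fold the block let 7 members pass lower in THP1 (1.63%). The 3 libraries at 24 h were all below those at 8 h for 6 of 43 members in THP1 (2.58%), *UQCR10*, *COX5B*, *COX7B*, *ATP5MC1*, *ATP5MC3* and *ATP5PO*. In MV4-11 the count was 0 (2.05%), and 33 (9.79%) when both replicate 3 libraries were left out.

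Other genes of the pathway were read from lists written for this comparison. The 37 nuclear subunits of complex I, the target of IACS, had medians of -0.27 and -0.17 relative to all genes at 24 h in MV4-11 and THP1, with 34 and 33 of 37 below the median. By limma 0 were called in either, and 7 and 13 were lower at an unadjusted p under 0.05. The 6 subunits of complexes III to V encoded by mitochondrial DNA had 0 calls by limma in each comparison. In THP1 at 8 h, 6 of 6 had a log2 fold change below 0 with a median of -0.53, where 83.6% of all genes were also below 0. From 8 h to 24 h, 6 of 6 were above 0 in both lines (medians 0.37 in MV4-11 and 0.22 in THP1), where 39 of 43 nuclear members in MV4-11 (44% of all genes) and 38 of 43 in THP1 (48.5%) were below 0. Their summed level overlapped between these times in both lines. In THP1 it was 9144, 10689 and 9580 TPM at 8 h and 9787, 17142 and 9026 TPM at 24 h, where only replicate 2 lay above all 8 h libraries. In MV4-11 it was 9785, 12814 and 15674 TPM at 8 h and 14432, 16275 and 16875 TPM at 24 h.

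Assembly factors were not called in any comparison with DMSO by limma. The 26 assembly factors of complex IV had medians of -0.13 and -0.11 relative to all genes at 24 h in MV4-11 and THP1, the 9 of complex III -0.07 and -0.10, the 6 of complex V -0.10 and -0.02, and the 4 of complex II -0.09 and -0.15. The 15 genes of ubiquinone synthesis and cytochrome c, the mobile carriers between the complexes, had -0.07 and -0.15. Of 12 tested regulators of respiratory gene transcription, 0 were called, with the lowest values *TFB2M* (-0.32, limma adjusted p = 0.279) in MV4-11 and *PPRC1* (-0.43, limma adjusted p = 0.592) in THP1 at 24 h. As a reference for the response to IACS, 8 of 8 targets of the integrated stress response had a log2 fold change above 0 at both times in both lines (at 8 h and 24 h, 33.1% and 34% of all genes were below 0 in MV4-11 and 83.6% and 72.8% in THP1), and *CHAC1* (1.47 at 8 h, limma adjusted p = 0.00315, and 1.07 at 24 h, 0.0212) and *PHGDH* (1.03 at 24 h, 0.0334) were called higher in MV4-11.

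The DMSO libraries ask how the 2 lines differ before IACS. Here 6 of 43 members were called by limma, 1 higher in THP1 (19.7% of all genes) and 5 lower (17.2%), or 6 of 43 against 36.9% of all genes in either direction. The 3 DMSO libraries did not overlap for 6 members that were higher in THP1 (29.8%) and 15 that were lower (30.9%). The 5 lower members were 1 of complex II, 2 of complex III, 1 of complex IV and 1 of complex V, each with all 3 THP1 libraries below all 3 MV4-11 libraries.

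*UQCRFS1* (chr19:29205320-29213151, minus strand) had the widest difference. It had 108, 103 and 107 TPM in MV4-11 and 56.9, 47.7 and 37.1 TPM in THP1, -1.17 on the log2 scale (SE 0.18, limma adjusted p = 3.2e-05). *ATP5F1D* (chr19:1241746-1244825, plus strand) had 69.9, 93.9 and 89.0 TPM against 41.4, 49.2 and 35.5 TPM (-0.99, SE 0.19, limma adjusted p = 0.000197). *UQCR11* (chr19:1597169-1605473, minus strand), the smallest subunit of complex III, had 82.6, 79.0 and 90.5 TPM against 46.3, 43.1 and 44.4 TPM (-0.90, SE 0.23, limma adjusted p = 0.00272). All 3 genes lie on chromosome 19, and none of their libraries overlapped between the lines.

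*SDHA* (chr5:218303-257082, plus strand) had 51.7, 53.4 and 52.0 TPM in MV4-11 and 32.0, 30.1 and 24.96 TPM in THP1 (a difference of -0.84 in log2, SE 0.17, limma adjusted p = 0.000397). *COX6B1* (chr19:35648323-35658782, plus strand), a subunit on the intermembrane side of complex IV, had 345, 338 and 343 TPM against 201, 195 and 186 TPM (-0.82, SE 0.20, limma adjusted p = 0.00206). *COX7A2* (chr6:75237675-75250323, minus strand) was the only member called higher in THP1, with 96.1, 85.2 and 92.0 TPM in MV4-11 and 217, 177 and 173 TPM in THP1 (1.04, SE 0.22, limma adjusted p = 0.000629). Next among the higher members was *UQCRH*, with 317, 311 and 325 TPM against 538, 463 and 376 TPM (0.51, limma adjusted p = 0.00422), under the fold threshold, and it was called without the 5 noncoding RNAs (0.59) and without replicate 3 of the THP1 DMSO libraries (0.65). *ATP5MC3* had a log2 fold change of 0.41 (limma adjusted p = 0.0675). *ATP5MC1* had 52.8, 51.2 and 53.1 TPM in MV4-11 and 64.9, 54.0 and 56.9 TPM in THP1, a small difference (0.15) without overlap.

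**Figure D4:**
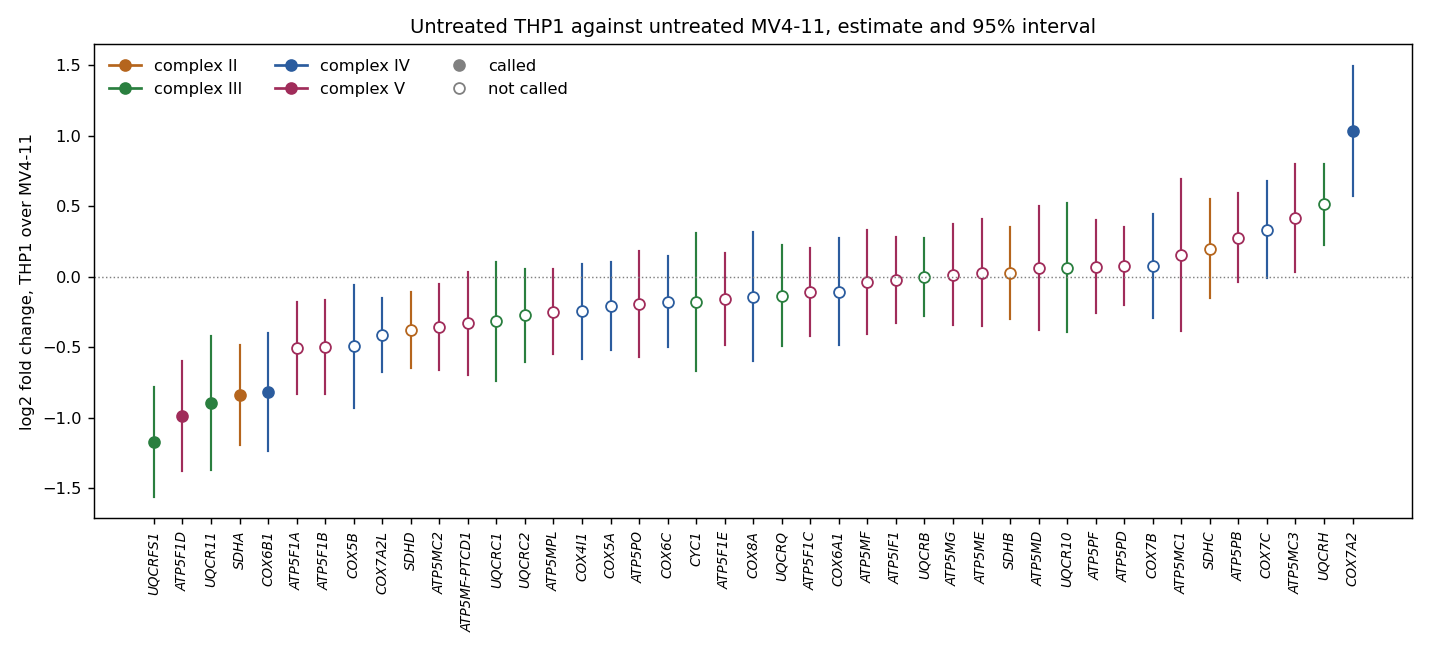
Log2 fold change of THP1 over MV4-11 in the DMSO libraries (vertical axis) for the 43 members, ordered by value and coloured by complex, with 95% intervals from limma. Filled points are the 6 called members; *UQCRFS1* is lowest at -1.17 and *COX7A2* highest at 1.04.

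The chromosome of the called members was noticed after their values were seen, and is given as a description. All 4 members on chromosome 19 were among the 5 that were lower. Over the 934 tested genes of chromosome 19 the median log2 fold change of THP1 over MV4-11 was -0.62 and 51.2% were called lower, the lowest median of the 23 chromosomes, whereas chromosome 1 had 0.49 and chromosome 6 had 0.40. The other tested genes within 1 Mb had medians of -0.99 (5 genes) around *UQCRFS1*, -0.63 (59) around *ATP5F1D*, -0.64 (63) around *UQCR11*, -0.66 (40) around *COX6B1*, -1.01 (12) around *SDHA* and 1.37 (3) around *COX7A2*. All 6 called members had the sign of their neighbours' median, but the share of all called genes for which this holds is not given here. The windows around *ATP5F1D* and *UQCR11* overlap, so these genes share neighbours and do not count separately. Over the 42 members with at least 3 such neighbours, Pearson's r between the 2 was 0.77 (0.65 for the 38 members outside chromosome 19) and Spearman's rho was 0.48. The DNA copy number of the lines was not analysed here, and its part in these values was not tested.

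**Figure D5:**
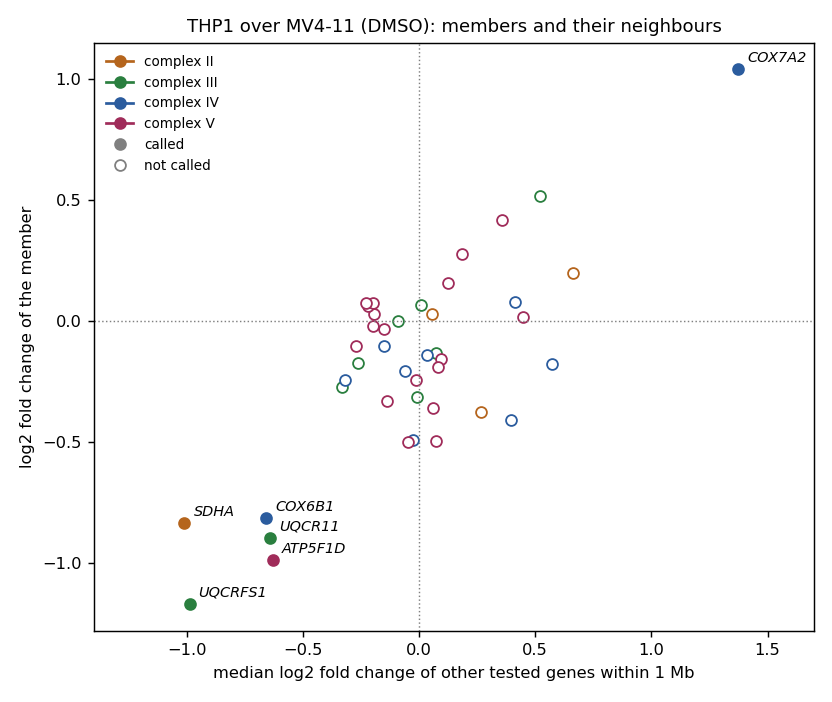
Log2 fold change of each of 42 members in THP1 over MV4-11 with DMSO (vertical axis) against the median log2 fold change of the other tested genes within 1 Mb (horizontal axis). Points are members coloured by complex, filled where called; all 6 called members lie in the quadrants where member and neighbours have the same sign, with *COX7A2* at 1.04 and 1.37.

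Among the other genes of the pathway in the DMSO libraries, 8 of 37 nuclear complex I subunits were called, 1 higher (*NDUFC1*, 0.94, limma adjusted p = 0.000644) and 7 lower in THP1, the widest being *NDUFA9* (-1.05, limma adjusted p = 3.55e-05). Of the 26 assembly factors of complex IV, 2 were called higher and 7 lower, with *COX20* at 2.83 (limma adjusted p = 9.11e-11) and *SCO1*, a copper chaperone, at -1.46 (9.99e-08). Of the 9 of complex III, 1 was called higher and 3 lower, with *TTC19* lowest at -1.29 (limma adjusted p = 1.62e-06), and of the 6 of complex V, 3 were called lower, with *FMC1* lowest at -0.94 (limma adjusted p = 0.0017). None of the 6 mitochondrially encoded subunits was called by limma. For these counts, 19.7% of all genes tested were called higher and 17.2% lower in this comparison, or 36.9% in either direction.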

How the data were processed

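RNA of 18 cell line libraries, 3 for each of 6 groups, was analysed. The authors deposited TPM per gene symbol, in columns that each sum to 1e6. Per the study's methods, RNA was taken with an on-column DNase step, libraries were made with a TruSeq v2 kit, paired-end reads were trimmed by quality and length, and reads were mapped to GRCh38 (hg38 in the submitters' notes) and quantified in CLC Genomics Workbench. The annotation release and the strand setting are not given in the sources used here. All columns were used and 0 were left out. TPM sum to a constant and divide by length, so abundant short RNAs move every other value. The time of the DMSO libraries is not given by the labels.

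From the TPM, log2(TPM + 1) was tested by limma 3.58.1 with a variance trend in R 4.3.3, separately for the 9 libraries of each cell line, keeping genes that average 1 TPM or more there (13542 in MV4-11 and 13928 in THP1), and 1 fit of 18 libraries (14117 genes) for the DMSO libraries of the 2 lines and the interactions. p-values were adjusted over all genes tested by the Benjamini-Hochberg method, and calls needed an adjusted p below 0.05 together with a change beyond 0.585 in log2. Depth was estimated from GENCODE release 44 exon lengths, which 28790 symbols matched. It and counting error are estimates, since the deposited unit holds no depth. The fits were tested on simulated data.

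The replicate numbers in the titles were taken to pair libraries where the deviations from the group means correlated above 0.1 in all 3 pairs: 24 h against DMSO (0.146, 0.149 and 0.324) and 24 h against 8 h (0.194, 0.278 and 0.355) in THP1, and 24 h against 8 h in MV4-11 (0.112, 0.417 and 0.435). No source says what a number stands for. In MV4-11, 24 h against DMSO missed this rule with 0.269, 0.0641 and 0.441. The block was fitted over all 9 libraries of a line. In THP1 these include the 8 h libraries, which missed the rule against DMSO (0.0462, 0.140 and 0.481). The p-values with the block depend on this pairing. No 2 libraries were identical. Members and lists were chosen with earlier results of these data known. Genes were named where called (up to 10), among the 3 widest in each direction, among the 3 highest or lowest of a complex, or for their role. Alternatives covered the pseudocount, the filter, the scaling, the block and each library left out.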

Additional observations from a re-analysis of the deposited data

How the results depend on the processing

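Of 1161 values recomputed under alternatives, 1093 kept their direction and their side of the threshold or stayed within the spread between replicates. The median of the members relative to all genes ranged from -0.41 to -0.09 in MV4-11 and from -0.26 to -0.11 in THP1 at 24 h, and crossed 0 in both lines at 8 h (-0.11 to 0.03 and -0.04 to 0.07). The 6 calls between the lines were made under every alternative with the fold threshold. Counting error, the fixed sum of TPM and 3 libraries a group limit the changes that can be seen.

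With 1 library left out in turn, the number of members called was 0 to 0 in all comparisons with IACS and for both interactions, and 6 to 8 between the lines, where *ATP5F1A* and *ATP5F1B* were added without replicate 1 of the THP1 DMSO libraries and *UQCRH* without replicate 3. A Kruskal-Wallis test over the 3 groups of a line, with the fold threshold and a p under 0.05 that was not adjusted, called 0 members in MV4-11 and in THP1 at either time; with 3 libraries a group only nearly complete separation reaches that p, so these counts say little about stability.

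With the replicate number as a block, 1 member (*ATP5MC1*) was called at 24 h in THP1 against DMSO and 1 (*ATP5MC1*) against 8 h, and no other call changed. The same 1 was called in both with median-of-ratios scaling, and with that and the block. It was also called in both without the 5 noncoding RNAs and at an unadjusted p with the fold threshold. In that order, 0.352%, 0.668%, 0.229% and 2.2% of all genes were called against DMSO. Against 8 h the shares were 0.251%, 0.388%, 0.0954% and 1.19%. The last share of each covers either direction, the others the lower one. A rule without a fold threshold was added after seeing the data for the scaled and blocked fits. For THP1 at 24 h against DMSO, 5 members were lower with median-of-ratios scaling (2.02% of all genes) and 0 higher (1.49%). With the block 16 were lower (11.1%) and 0 higher (1.11%), and with both 11 were lower (8.21%) and 1 higher (6.89%). For THP1 at 24 h against 8 h, 7 were lower with the scaling (1.82%), 7 with the block (1.63%) and 15 with both (6.7%). In each, 0 were higher (0.89%, 0.854% and 4.55%). MV4-11 at 24 h against DMSO gave 1 lower, *ATP5PF*, with the scaling (1.52%) and 4 lower with both (4.28%). In each, 0 were higher (1.57% and 4.3%). Between the lines, dropping the fold threshold gave 12 members, 2 higher in THP1 (26% of all genes) and 10 lower (24%). With the scaling there were 18, 5 higher (33.3%) and 13 lower (31.9%). With the block there were 12, 2 higher (27.3%) and 10 lower (25%). With both there were 20, 5 higher (34.8%) and 15 lower (33.5%). A fit without replicate 3 of both IACS groups was also added later. MV4-11 at 24 h then gave 1 lower call, *ATP5MC1* (0.6% of all genes). With median-of-ratios scaling it gave 4, *ATP5MC1*, *UQCRQ*, *ATP5MF* and *COX7B* (1.39%). In MV4-11 the numbers paired libraries at 24 h against 8 h only, and for the other comparisons the samples shared only a number.

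The reversed log2 fold changes given here lay between -0.13 and 0.091, where the median member at 24 h in MV4-11 was -0.14. Without replicate 3 of both IACS groups, *COX7A2* at 8 h in MV4-11 was -0.035, *UQCRC2* -0.0028 and *COX8A* -0.12, and *COX8A* was -0.071 with median-of-ratios scaling added. *UQCRC2*, *ATP5MC2* and *ATP5IF1* at 24 h in MV4-11 were then -0.014, -0.015 and -0.0080, -0.11, -0.11 and -0.11 with the scaling added, and -0.0015, -0.0094 and -0.023 with the scaling alone, with or without the block. *UQCRH* at 24 h in THP1 was 0.081 with the scaling, with or without the block, and 0.091 without the 5 noncoding RNAs. With 1 library left out in turn, *COX7A2* ranged from -0.035 to 0.35, *UQCRC2* from -0.0028 to 0.24 and *COX8A* from -0.12 to 0.22 at 8 h in MV4-11, and *UQCRC2* from -0.014 to 0.15, *ATP5MC2* from -0.015 to 0.13 and *ATP5IF1* from -0.0080 to 0.14 at 24 h, each lowest without replicate 3 of its IACS group. In THP1 at 8 h, *COX5B* ranged from -0.018 to 0.13 and *CYC1* from -0.11 to 0.22, each lowest without replicate 2 of the 8 h group. In THP1 at 24 h, *COX7A2L* ranged from -0.0075 to 0.12, *COX6C* from -0.13 to 0.17 and *UQCRH* from -0.19 to 0.067. The cause was not tested.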
